A study of Mus musculus with 6 samples.

Results

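The ileum of mice on a high-fat diet was set against liver and epididymal fat from the same study, gene by gene, on 2 ileum arrays of 6 arrays in all. For each of 22180 genes, the mean of both ileum arrays was taken minus the higher of the liver mean and the adipose mean, on the log2 scale, and that value is called the organ difference here. A gene was counted as higher in the ileum where the organ difference was at least 1, which is a factor of 2. This held for 2806 genes, or 12.7% of the genes measured. At least 2 was reached by 945 genes (4.26%), at least 4 by 289, at least 6 by 119 and at least 8 by 33. In 257 genes (1.16%) the ileum was called lower, at least 1 below both other organs and passing the limma fit described below. In 91 genes it lay at least 2 below both. Abcb10 lay just inside the threshold (organ difference 1.0001) and Sh3gl1 just outside it (0.9999).

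The arrays came from male C57BL/6J mice, bought at 4 weeks of age, that ate a powdered diet with added lard and 50% of its energy from fat for 92 days. In the BF group the dietary fiber, 5% of the diet, came from the flour of a barley rich in β-glucan (Beau Fiber, BF), and in the control group it came from cellulose. Each array stood for a pool, made for 1 organ from equal parts of the RNA of 10 mice of 1 diet: ileum BF, ileum control, liver BF, liver control, adipose BF and adipose control. No array stood for a lean mouse or a diet low in fat, so the genes described are those of the ileum under this diet and not an effect of the fat. The labels call the adipose arrays adipocytes where the methods name epididymal fat tissue. One label of the adipose BF array names the cellulose diet, while its title, description and diet label name barley. The mean over both adipose arrays does not depend on that label, but the values per diet do.

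The arrays of each organ had evidently been normalized apart from those of the other organs. Within an organ, both arrays held the same value, within 5e-05, in 4.3% (ileum), 5.16% (liver) and 3.54% (adipose tissue) of probe sets, but in at most 0.0121% between organs. The median signal was 4.39 on the BF array and 4.42 on the control array of the ileum, 3.4 on both liver arrays, and 4.19 and 4.17 on the BF and control arrays of adipose tissue. Organ and normalization can therefore not be told apart in small organ differences. Over all genes the ileum lay 0.77 above the liver and 0.19 above adipose tissue at the median, and after quantile normalization of the 6 arrays together these medians were -0.08 and -0.01. The count of genes higher in the ileum was then 1428, each of them among the 2806, the count at 2 or more was 630, each of them among the 945, and 718 genes lay at least 1 below both organs. Counts after this normalization stand beside those of the gene lists below. They are to be read against 1428 of all 22180 genes, and the counts with the deposited values against 2806 (12.7%). Of 156 genes counted as higher that had several probe sets, 40 had all of them at 1 or more. The calls of genes higher in the ileum rest on the size of the difference, and no p-values are given. The genes were ranked on the same values that a limma fit across all genes tested, and that fit cannot separate organ from normalization. Its spread is the variation of the diet difference among organs, moderated over genes. With 1 pool per organ and diet, it does not measure the spread between mice. Every gene counted as higher with the deposited values passed this fit at an adjusted p under 0.05. The 257 genes counted as lower were also asked to pass it, while the 718 rest on size alone. The plot of counts by threshold shows both scalings.

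**Figure D1:**
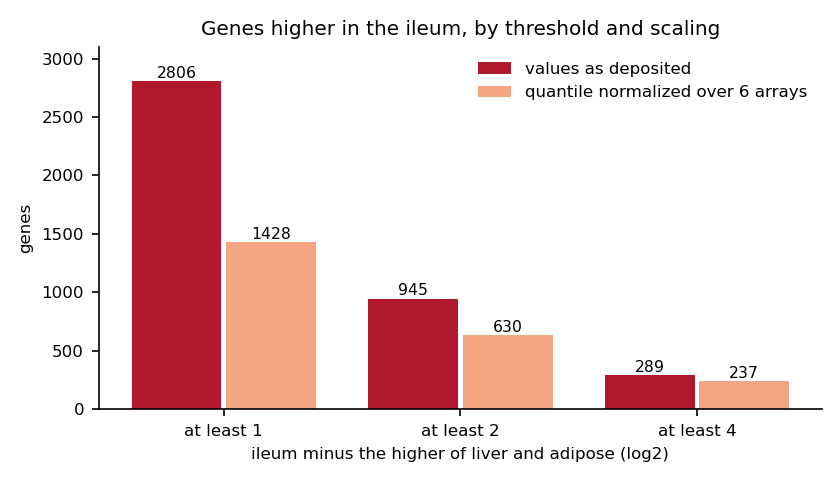
Number of genes (y axis) whose ileum mean lay at least 1, 2 or 4 above the higher of the liver and adipose means on the log2 scale (x axis), with the deposited values (dark red bars) and after quantile normalization of the 6 arrays (light bars). At 1 or more there are 1428 genes after quantile normalization, against 2806 with the deposited values, and at 4 or more 237, against 289.

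The ileum is the last segment of the small intestine. Its absorptive cells, the enterocytes, carry a brush border of microvilli set with digestive enzymes and carriers, and they take up what the upper gut has left, above all bile acids and vitamin B12. Goblet cells secrete mucus, Paneth cells at the crypt base secrete antimicrobial peptides, enteroendocrine cells secrete hormones, and stem cells in the crypts renew the epithelium. The tissue also holds immune cells, smooth muscle, enteric neurons and stroma. In RNA of whole tissue, more cells of a type and more RNA per cell cannot be told apart.

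The promoters of 4 genes high in the ileum are shown because each holds a short motif of a factor known from the gut. The window runs from 250 bases before the start of the gene to 50 after it, as given by RefSeq on GRCm38.p6. The motifs searched on both strands were TTTATGG for CDX2, CAAAGTCCA for HNF4A, GTTAATNAT for HNF1 and AGATAAG for GATA factors. Itln1, a lectin of Paneth and goblet cells (chr1:171535245-171535544, minus strand), holds the CDX2 motif on the opposite strand, 30 to 24 bases before the start. Alpi, the intestinal alkaline phosphatase (chr1:87101557-87101856, minus strand), holds the HNF4A motif 19 to 11 bases before it. Reg4, a secreted lectin of the gut (chr3:98221906-98222205, plus strand), holds the GATA motif 101 to 95 bases and the HNF1 motif 94 to 86 bases before it, side by side. Slc10a2, the apical bile acid carrier (chr8:5105238-5105537, minus strand), holds the HNF1 motif on the opposite strand, 220 to 212 bases before it. The capitals mark the motifs, and the genes were chosen after their values were seen.
Itln1: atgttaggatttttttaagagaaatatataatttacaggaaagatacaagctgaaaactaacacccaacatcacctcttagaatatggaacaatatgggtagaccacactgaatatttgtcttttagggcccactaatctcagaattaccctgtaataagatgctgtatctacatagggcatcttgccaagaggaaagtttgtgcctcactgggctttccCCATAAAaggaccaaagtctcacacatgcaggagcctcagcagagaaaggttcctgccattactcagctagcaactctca
Alpi: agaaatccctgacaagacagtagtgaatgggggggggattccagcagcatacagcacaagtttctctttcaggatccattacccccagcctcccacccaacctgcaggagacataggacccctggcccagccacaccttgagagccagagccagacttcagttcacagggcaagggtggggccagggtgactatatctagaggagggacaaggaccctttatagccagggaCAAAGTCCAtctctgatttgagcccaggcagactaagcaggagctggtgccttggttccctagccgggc
Reg4: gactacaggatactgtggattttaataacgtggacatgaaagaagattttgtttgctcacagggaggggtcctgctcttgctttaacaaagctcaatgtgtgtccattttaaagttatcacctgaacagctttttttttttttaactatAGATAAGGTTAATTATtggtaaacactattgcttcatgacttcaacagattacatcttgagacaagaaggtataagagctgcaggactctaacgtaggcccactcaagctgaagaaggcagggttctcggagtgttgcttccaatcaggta
Slc10a2: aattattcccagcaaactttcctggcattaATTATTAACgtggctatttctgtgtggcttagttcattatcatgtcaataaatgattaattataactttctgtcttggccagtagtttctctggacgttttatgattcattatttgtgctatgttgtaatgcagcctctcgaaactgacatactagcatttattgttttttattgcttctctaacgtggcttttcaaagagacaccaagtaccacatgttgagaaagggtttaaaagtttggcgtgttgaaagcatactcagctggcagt
These motifs were not common among the genes higher in the ileum. Of 2119 promoters of genes called higher, 2.12% held the CDX2 motif, 0.755% that of HNF4A, 0.802% that of HNF1 and 2.36% that of GATA factors, against 2.39%, 0.436%, 0.788% and 2.64% of all 15359 promoters of the measured protein-coding genes. Among the 205 promoters of genes with an organ difference of at least 4 the shares were 5.85%, 2.44%, 2.93% and 5.37%, in the same order of motifs. The 330 promoters of genes with the liver at least 2 above the ileum and adipose tissue held them in 3.33%, 3.33%, 6.67% and 6.36%. A match of letters is a description and not a binding site.

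The 4 marker genes named for this organ were all high in it. Fabp6, the bile acid-binding protein of ileal enterocytes, had a signal of 12.09 and 12.03 on the BF and control arrays of the ileum, and of 2.69 to 2.99 on the liver and adipose arrays. Its organ difference was 9.08, a factor of 543. Muc2, the gel-forming mucin of goblet cells, had 12.06 and 12.14 on the BF and control arrays of the ileum and 3.39 to 4.87 on the other arrays, an organ difference of 7.29. Fgf15, the hormone by which the ileum signals bile acids to the liver, had 8.75 and 8.74 on the BF and control arrays of the ileum and 2.91 to 3.91 on the others, an organ difference of 4.83, which was 2.63 with the mean of its probe sets. Slc10a2, whose promoter is shown above, was also seen in the liver, with 10.58 and 10.79 on the BF and control arrays of the ileum, 6.78 and 6.56 on those of the liver, and 2.44 and 2.38 on those of adipose tissue. Its organ difference was 4.02, set by the liver. In all 4 both ileum arrays lay above those of the other organs, but the share of all genes for which this held was not counted. Many of the low values lie between 2 and 4, near the bottom of these arrays, and no detection calls were used, so the folds against them are of uncertain size.

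The genes with the largest organ differences had several roles. Reg3b and Reg3g, lectins that kill bacteria, led with organ differences of 9.84 and 9.74. Reg3b had 12.72 and 12.68 on the BF and control arrays of the ileum and 2.41 to 3.09 on the other arrays. Ang4, an angiogenin of Paneth cells, followed at 9.71, Clca4b at 9.59, the alpha-defensin gene Defa22 at 9.39, the sucrase-isomaltase gene Sis at 9.28 and Zg16, a lectin of goblet cell mucus, at 9.16. Sis had 12.22 and 12.13 on the BF and control arrays of the ileum, and 2.52 to 2.94 on the others. Among the next were Clca3b (8.99), Mptx2, a pentraxin of the mucosa (8.92), Muc13, a membrane mucin (8.89), Itln1 (8.83), Cdh17, the cadherin of the gut epithelium (8.76), Lypd8 (8.67) and Slc13a1, a sulfate carrier (8.65). After quantile normalization the 25 protein-coding genes with the largest organ differences all stayed above 7.5, the lowest being Vil1 (7.61) and Slc15a1 (7.79).

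**Figure D2:**
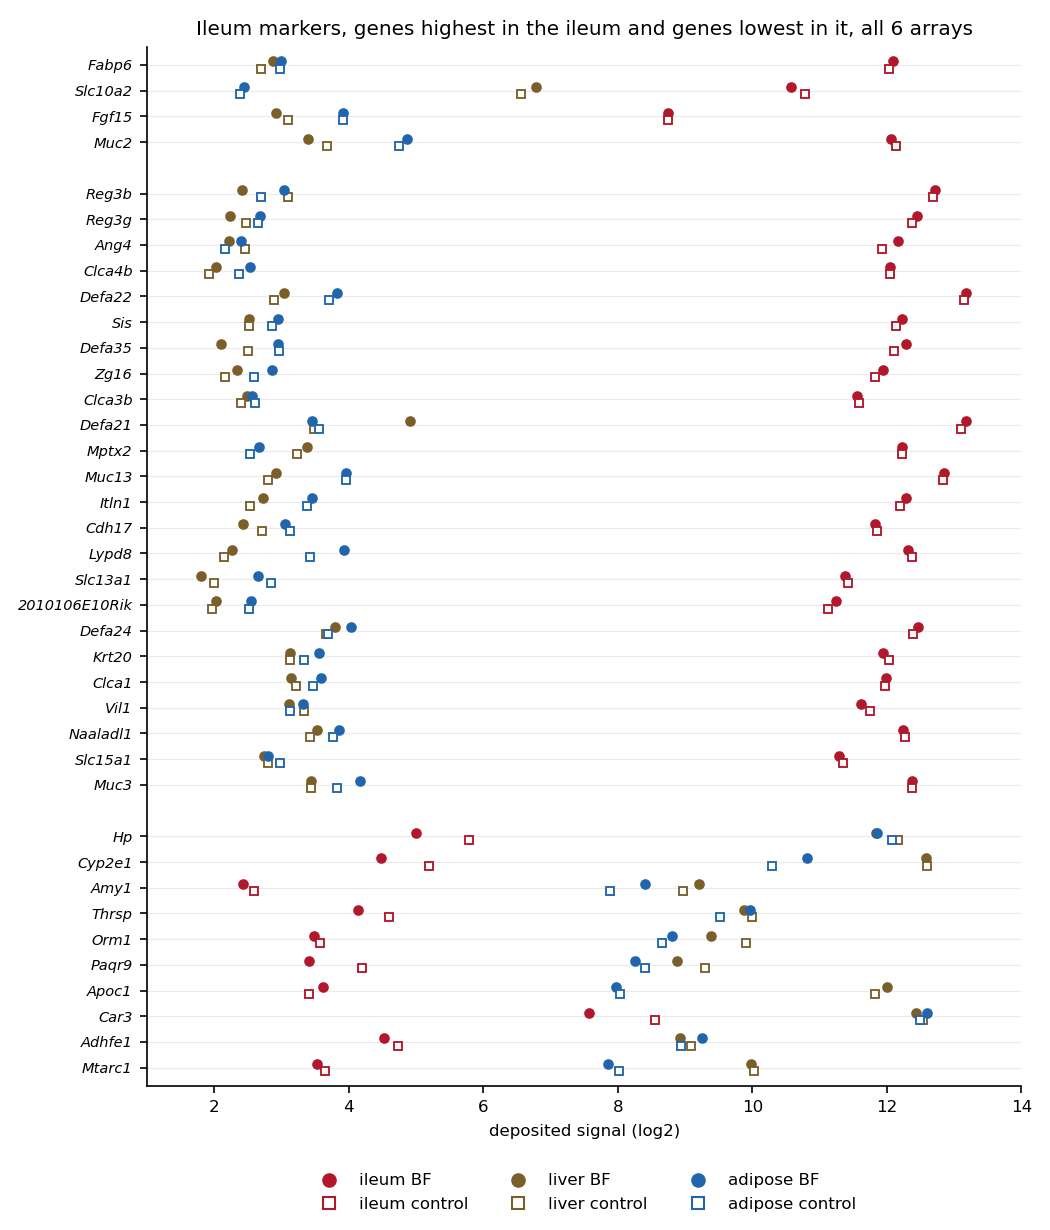
Deposited signal on the log2 scale (x axis) of the 4 ileum markers, the other genes among the 25 protein-coding genes with the largest organ difference, and the 10 genes with the ileum furthest below both other organs (y axis), on the BF (filled circles) and control (open squares) arrays of ileum, liver and adipose tissue. The ileum arrays sit between 8.74 and 13.18 in the upper groups and between 2.43 and 8.55 in the lowest group. Apart from the 4 markers, the genes were chosen by these differences, so the gaps between organs follow from the choice.

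Most listed genes that build and arm the brush border were higher in the ileum. The gene lists here and below were chosen with earlier results of these data known. Their counts describe the listed genes and are no test. All 15 measured genes of microvillus structure were higher, with a median organ difference of 4.40 (13 after quantile normalization). Vil1, which encodes the actin bundler villin, had 11.61 and 11.75 on the BF and control arrays of the ileum and 3.11 to 3.34 on the others. The myosin gene Myo1a (8.21) and the protocadherin gene Cdhr2 (7.85) had organ differences of like size. Cdhr5, the partner of Cdhr2 at the microvillus tip, was also high in the liver and had 3.79. Espn (1.05) and Anks4b (1.27) passed only without quantile normalization. Among the brush border enzymes, 15 of 17 were higher (14 after quantile normalization), with a median of 3.57. Naaladl1, a peptidase, reached 8.45, the meprins Mep1b and Mep1a 8.22 and 7.89, and Alpi 7.85. Enzymes known from several organs differed less, as with Anpep, aminopeptidase N (3.41), Dpp4 (2.66) and Ace, the angiotensin-converting enzyme (2.21). Tmprss15, the duodenal enteropeptidase that activates trypsin, had only 2.81 and 2.88 on the BF and control arrays of the ileum. Folh1, a folate hydrolase, had 3.03 and 3.07 there, against 6.49 and 6.73 on the BF and control arrays of adipose tissue.

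Carriers of the apical membrane followed the same pattern. Of 16 genes of sugar and ion transport 13 were higher, also after quantile normalization, with a median of 5.30. Slc5a1, the sodium-glucose carrier SGLT1, had 10.95 and 11.06 on the BF and control arrays of the ileum and 2.59 to 3.28 on the others. Slc34a2, a phosphate carrier, had an organ difference of 7.79, the chloride channel gene Cftr 5.51, the chloride-bicarbonate exchanger gene Slc26a3 5.48 and Slc2a5, the fructose carrier, 2.94. Slc2a2, the basolateral glucose carrier GLUT2, was highest in the liver, with 9.18 and 8.30 on the BF and control arrays of the ileum against 10.95 and 11.02 on those of the liver. Of 13 amino acid and peptide carriers, 10 were higher (9 after quantile normalization). Slc15a1, the peptide carrier PEPT1, reached 8.43, Slc6a14 7.23 and Slc6a19, which carries neutral amino acids, 6.54. Slc1a5, a glutamine carrier, was highest in adipose tissue and had an organ difference of -3.03. Of 10 genes of metal transport 7 were higher (5 after quantile normalization), led by the zinc carriers Slc39a5 (4.17) and Slc39a4 (3.78). Slc40a1, which exports iron, was as high in the liver (-0.42), and Trpv6, the apical calcium channel of the duodenum, was low in the ileum at 3.53 and 3.93 on the BF and control arrays.

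Uptake of bile acids and vitamin B12 is what the ileum is known for. Of 11 measured genes of bile acid handling 6 were higher, also after quantile normalization. Beside the 3 markers, Slc51a, a subunit of the basolateral bile acid exporter, had 10.91 on both ileum arrays and 2.78 to 3.29 on the others, an organ difference of 7.69. Abcb1a, an efflux pump, had 4.62 and Abcg2 1.86. Nr1h4, the bile acid receptor FXR, was not called, with 9.41 and 9.32 on the BF and control arrays of the ileum, 8.74 and 8.78 on those of the liver and under 4 in adipose tissue. Its target Nr0b2, which encodes SHP, was near the bottom of the ileum arrays, at 3.90 (BF) and 3.94 (control). Among 12 genes of vitamin uptake 6 were higher (4 after quantile normalization). Cubn, the receptor for vitamin B12 with intrinsic factor, had 11.25 and 10.92 on the BF and control arrays of the ileum and an organ difference of 7.88. Amn, its membrane partner, had 3.57, the retinol-binding protein gene Rbp2 5.69 and the riboflavin carrier gene Slc52a3 5.15. The folate carrier gene Slc46a1 (-1.16) and the vitamin C carrier gene Slc23a1 (-2.35) were highest in the liver.

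Fat absorption split between genes of the gut and genes shared with the liver. Of 20 genes, 9 were higher (5 after quantile normalization) and 3 lower. Plb1, a phospholipase of the brush border (6.65), Npc1l1, the cholesterol uptake protein (6.23), the fatty acid carrier gene Slc27a4 (3.88), Fabp2, the intestinal fatty acid-binding protein (3.01), and the monoacylglycerol acyltransferase gene Mogat2 (2.93) stood highest. Fabp2 had 12.31 and 12.33 on the BF and control arrays of the ileum, 9.25 and 9.36 on those of the liver and 3.94 and 2.98 on those of adipose tissue. Mttp (1.3) and Dgat1 (1.25), which load and make triglyceride, passed only without quantile normalization. The apolipoprotein genes were near the liver: Apob had 12.34 and 12.07 on the BF and control arrays of the ileum against 12.46 and 12.48 on those of the liver, Apoa1 an organ difference of -0.08 and Apoa4 one of 0.63. Cd36, the fatty acid translocase, was lowest in the ileum, at 6.52 and 6.70 on the BF and control arrays, against 8.47 to 12.17 in the other organs. Scarb1 and Dgat2 were lower as well, by 2.31 and 1.74 below the nearer organ. Of the whole family of fatty acid- and retinoid-binding proteins only 3 of 14 were higher, namely Fabp6, Rbp2 and Fabp2, also after quantile normalization.

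Transcription factors of the gut epithelium were higher in 14 of 23 cases, also after quantile normalization, with a median of 2.46. Hnf4g had 11.16 and 11.32 on the BF and control arrays of the ileum and 2.82 to 3.62 on the others, an organ difference of 7.83. Its paralog Hnf4a did not differ from the liver by 1, with 10.61 and 10.68 on the BF and control arrays of the ileum against 10.28 and 9.99 on those of the liver. Klf5 (6.34), Isx (5.65), Gata5 (5.09), Cdx2 (4.50) and Cdx1 (3.51), which set or hold gut identity, were higher, as were Atoh1 (4.48), the switch to the secretory lineage, and Gata6 (3.27). Gata4 (0.31), known from the upper small intestine, and Pdx1 (-0.12), known from the duodenum, were not. Of 31 nuclear receptors 5 were higher (4 after quantile normalization), beside 12.7% of all genes. They were Hnf4g, Vdr, the vitamin D receptor (5.44), Ppard (2.36), Nr3c2 (1.67, lost after quantile normalization) and Esrra (1.61). Ppara was highest in the liver (-2.79) and Pparg in adipose tissue (-3.64).

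Genes of the secretory cells had large organ differences. Of 17 goblet cell genes 15 were higher (14 after quantile normalization), with a median of 4.78, led by Zg16, Clca1 (8.46), Klk1 (8.10), Agr2 (7.77), a folding enzyme for mucins, and Fcgbp (7.75). Of 14 Paneth cell genes 10 were higher, also after quantile normalization, with a median of 6.40. Lyz1, the lysozyme of Paneth cells, had 12.94 and 12.87 on the BF and control arrays of the ileum but also 7.20 and 7.12 on those of adipose tissue. Of 13 alpha-defensin genes and pseudogenes 11 were higher under both scalings, with a median of 6.78. These genes are near-identical copies, so probe sets may share their signal and the single values are uncertain. Of 13 genes of antimicrobial response 9 were higher under both scalings, among them Reg4 (6.38), Duox2, which makes hydrogen peroxide (5.93), Reg3a (5.61) and Nos2 (4.62). Pigr, which carries IgA across the epithelium, was just below the threshold (0.97), with 12.20 and 12.29 on the BF and control arrays of the ileum against 11.30 and 11.26 on those of the liver.

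Of 28 enteroendocrine genes 18 were higher (15 after quantile normalization), with a median of 1.55. Hormone genes led. Gcg, the precursor of GLP-1, had 8.73 and 8.78 on the BF and control arrays of the ileum and an organ difference of 5.59. Nts (neurotensin) had 5.4, Sst (somatostatin) 4.59 and Pyy (peptide YY) 4.24. Cck (1.49) and Gip (0.80), known from the upper small intestine, had small differences, and Insl5, a colonic hormone, was at 3.12 and 2.83 on the BF and control arrays of the ileum. Of 18 tuft cell genes 7 were higher (6 after quantile normalization), led by Cd24a (3.43) and Rgs13 (3.2), while most lay under 6 in the ileum. Of 10 genes of M cells, the epithelium over lymphoid follicles, 5 were higher (2 after quantile normalization), with Spib at 2.64 and Gp2 at 0.86.

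Of 30 genes on a list of epithelial junctions and keratins 29 were higher (26 after quantile normalization), with a median of 3.74. The list was chosen for the gut, and of the whole families 8 of 49 keratins (5 after quantile normalization) and 7 of 31 claudins (6) were higher. These are 16.3% of the keratins and 22.6% of the claudins, beside 12.7% of all genes. Krt20 (8.54), Cldn7 (6.71), Epcam (6.51) and Lgals4 (6.41) stood high, while Tjp1, a junction protein of many tissues, was the exception at 0.60. Of 23 mucins and glycosyltransferases 19 were higher (17 after quantile normalization), among them Muc13, Muc3 (8.38) and B4galnt2 (7.07). Muc5b (0.32) and Muc1 (-0.47) were not. Of the whole mucin family 5 of 12 were higher (41.7%) under both scalings, with a median of 0.14. Of 16 genes of the crypt base 8 were higher (6 after quantile normalization): Olfm4 had 10.93 and 11.03 on the BF and control arrays of the ileum and an organ difference of 8.11, while Lgr5, the stem cell receptor, had 2.00 (0.91 after quantile normalization). Of 23 cell cycle genes 20 were higher (19 after quantile normalization), with a median of 1.86. Mki67 had 8.88 on both ileum arrays, 4.08 and 4.31 on the BF and control arrays of the liver and 6.45 and 7.21 on those of adipose tissue.

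**Figure D3:**
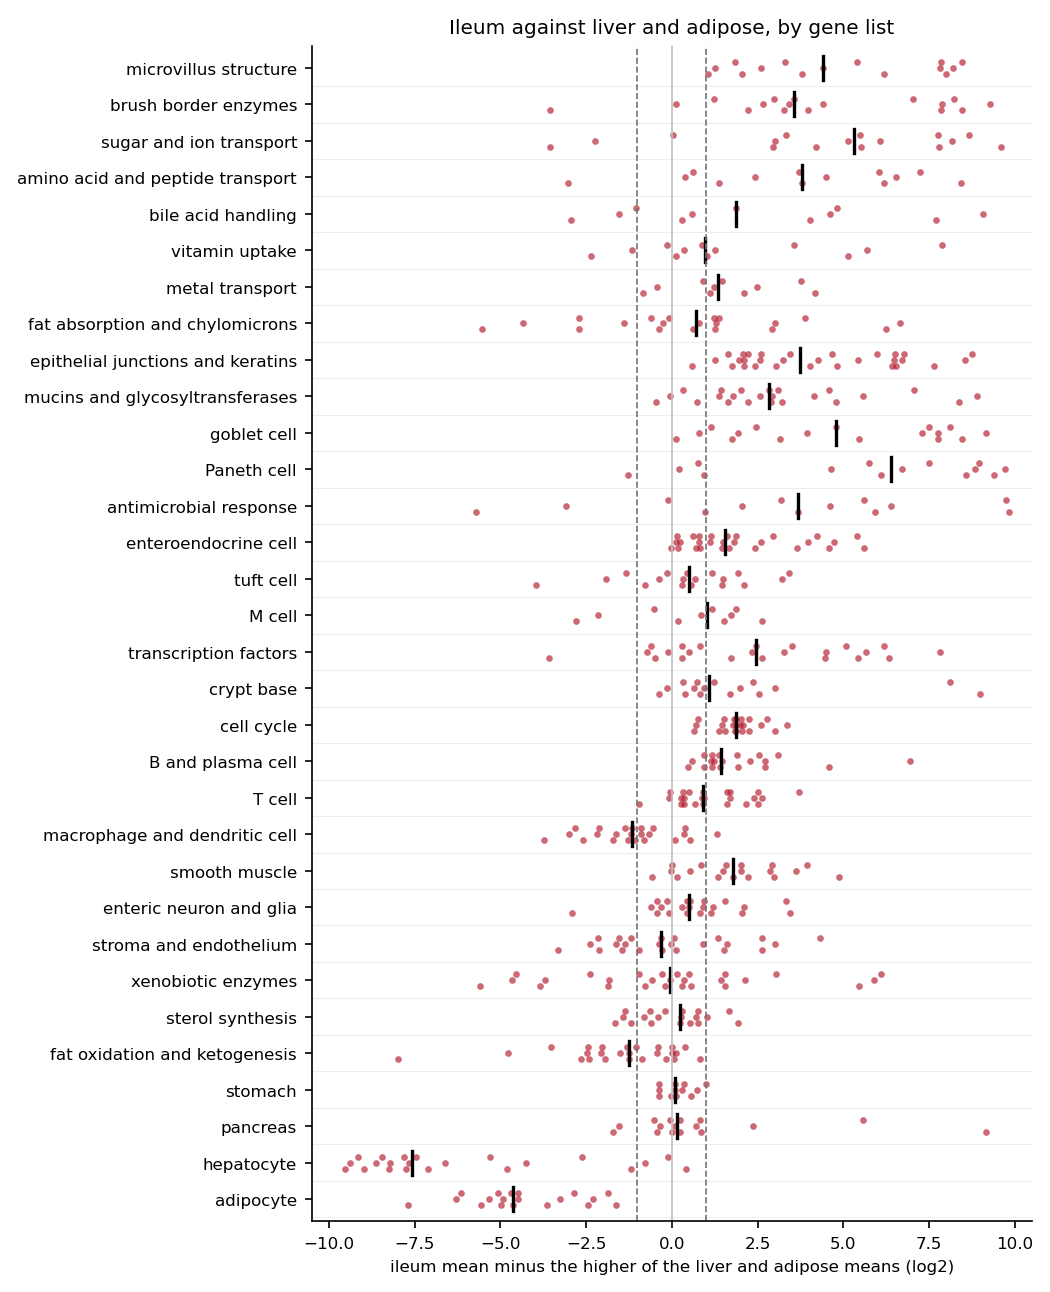
Organ difference of each measured gene (points, ileum mean minus the higher of the liver and adipose means, log2, x axis) by gene list (y axis), with the median of a list as a black bar and dashed lines at 1 and -1. Microvillus structure (median 4.40), goblet cell (4.78) and Paneth cell lists (6.40) lie to the right, and hepatocyte (-7.56) and adipocyte lists (-4.63) to the left.

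Immune genes higher in the ileum were mostly those of lymphocytes. Of 20 B and plasma cell genes 16 were higher, and 9 after quantile normalization. Jchain, which joins IgA dimers, had 11.23 and 11.06 on the BF and control arrays of the ileum and 2.66 to 4.32 on the others. Of 21 immunoglobulin segments 19 were higher under both scalings, with a median of 5.03, and these too are copies that probe sets may not separate. Of 24 T cell genes 10 were higher under both scalings, with Gzma (3.71), Cd4 (2.63) and Cd3e (2.16) as examples. T cell genes lay at least 1 above the liver in 19 cases and above adipose tissue in 11. Of 23 genes of macrophages and dendritic cells 1 was higher, Cd209a at 1.31, and none after quantile normalization. Their median was -1.15, and Cd68 had 6.74 and 6.68 on the BF and control arrays of the ileum against 10.02 and 10.88 on those of adipose tissue. Of these 23 genes, 10 lay at least 1 above the liver and 1 above adipose tissue. The median differences of the ileum from these organs were 0.48 and -1.08. Il22ra1, the receptor for IL-22 on epithelium, had 4.30, and Il22 itself was under 2 on all arrays of the study.

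Genes of the muscle coat were higher in the ileum more often than genes of its nerves. Of 19 smooth muscle genes 13 were higher (11 after quantile normalization), led by Actg2, the gut actin, with 8.90 and 9.03 on the BF and control arrays of the ileum and an organ difference of 4.87. Cnn1 had 3.94 and Myh11 2.85. Of 22 genes of enteric neurons and glia 7 were higher (5 after quantile normalization), with Snap25 (3.44) and the neuropeptide gene Vip (3.32) first. The median of this list was 0.51 and its lowest organ difference -2.90, and 7 of the 22 had an ileum mean of at least 6. Of 24 genes of stroma and endothelium 7 were higher (6 after quantile normalization), among them Grem1 (4.33) and Foxf1 (3.01) of gut mesenchyme, whereas Col3a1 (-2.16) and Pecam1 (-1.35) were highest in adipose tissue.

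Genes that mark other parts of the gut were mixed. Of 16 genes of the proximal small intestine 7 were higher (6 after quantile normalization), with Ckmt1 (5.51) and the lactase gene Lct (4.42) first. Of 18 genes of the colon 6 were higher (4 after quantile normalization), among them Lypd8 and Muc3. Of 33 listed Hox genes 6 were higher (3 after quantile normalization), all of them but Hoxa3 in the Hoxb cluster. Hoxb9 stood at 2.20, Hoxb8 at 1.85 and Hoxb6 at 1.74. In the whole Hox family 6 of 37 genes were higher (16.2%), beside 12.7% of all genes. None of 12 stomach genes was higher under either scaling, but 1 was when the control array of the ileum or of the liver was left out. Of 16 pancreas genes 3 were under both scalings, namely Zg16, Clps, the colipase (5.56), and Rnase1 (2.36), while the protease gene Prss2 was at 3.38 and 3.29 on the BF and control arrays of the ileum.

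Lists of metabolism differed, beside the 12.7% of all genes that were higher in the ileum. None of 25 genes of fat oxidation and ketogenesis was higher under either scaling, and their median was -1.25, although 1 passed when the control array of the ileum or of the liver was left out. Of 19 genes of sterol synthesis 3 were higher (1 after quantile normalization), with Sqle, squalene epoxidase, at 1.94. That count was 6 without the ileum control array and 0 with the arrays centred on their median. Sqle differed between the liver arrays, at 6.34 (BF) and 7.77 (control). Of 27 enzymes and regulators of foreign compounds 8 were higher (5 after quantile normalization), among them Cyp4f40 (6.09), Sult2b1 (5.88) and Cyp2c65 (5.47), while Cyp3a11 was highest in the liver (-3.70). Slc5a8, which carries short-chain fatty acids, had 10.84 and 10.55 on the BF and control arrays of the ileum and an organ difference of 7.30. The receptors for these acids were low there, Ffar2 at 4.31 on both arrays and Ffar3 at 3.08 (BF) and 3.28 (control).

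In 93 genes the ileum and the liver lay within 1 of each other and at least 2 above adipose tissue (132 after quantile normalization). Among them were Apob, Apoa1, Apoa4, Pigr, Otc, an enzyme of the urea cycle, Hnf4a, Nr1h4 and Nr1i2, the receptor PXR. The ileum and adipose tissue lay within 1 of each other and at least 2 above the liver in 405 genes, but in 98 after quantile normalization. Of the 945 genes at least 2 above both organs, adipose tissue was the nearer organ in 766 and the liver in 179. In 612 of them both other organs had means under 5, and in 875 the ileum mean was at least 6. By family, 87 of 334 solute carriers were higher (53 after quantile normalization), 7 of 8 Clca genes (6), 5 of 7 Reg genes (5), 13 of 1105 olfactory receptors (1) and 15 of 483 microRNA genes (6).

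The genes with the ileum furthest below both organs were by their choice high in the liver and adipose tissue alike. Hp, the acute-phase protein haptoglobin, had 5.0 and 5.78 on the BF and control arrays of the ileum and 11.84 to 12.16 on the other arrays, a difference of -6.58 to the nearer organ. Cyp2e1 (-5.71), Amy1 (-5.63), Thrsp, a regulator of fat synthesis (-5.37), and Orm1 (-5.21) came next, then Paqr9 (-4.54), Apoc1 (-4.50), Car3 (-4.43), Adhfe1 (-4.38) and Mtarc1 (-4.35). Of the 22 hepatocyte markers none was higher in the ileum under either scaling. Defining ones such as Fgb, Ahsg and Cyp7a1 were under 4 on both ileum arrays, but Alb had 4.53 (BF) and 3.59 (control). Cps1 and Otc of the urea cycle were at 9.82 to 10.66 in the ileum. Of the 19 adipocyte markers none was higher under either scaling. They were not all at the bottom of the ileum arrays: Adipoq had 4.71 (BF) and 5.76 (control) there, Lep 3.71 (BF) and 4.56 (control), and Fabp4 7.23 (BF) and 7.79 (control), against 12.47 and 12.52 on the BF and control arrays of adipose tissue.

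The diets gave mostly the same genes, more so at larger organ differences. When the organ difference was taken on the 3 BF arrays alone, 972 genes reached 2, and on the 3 control arrays alone 934. Both sets shared 849 genes, which is 87.3% of the BF set and 90.9% of the control set. At 4 or more, 265 genes were shared, 92% of 288 on BF and 91.4% of 290 on control. At 1 or more, 2363 genes were shared, 81.7% of 2894 on BF and 84% of 2814 on control. The sets come from arrays of separate pools, but both arrays of an organ were evidently normalized together. A shift of a whole organ from normalization would therefore enter both sets alike. Across all genes, which are not independent, the organ difference on BF and that on control had a Pearson correlation of 0.96. Over the 1057 genes at 2 or more on either diet, 80.8% differed by under 0.5 between diets and 96.3% by under 1. Of the 25 genes with the largest difference on each diet, 24 were shared, and of the first 100, 88.

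**Figure D4:**
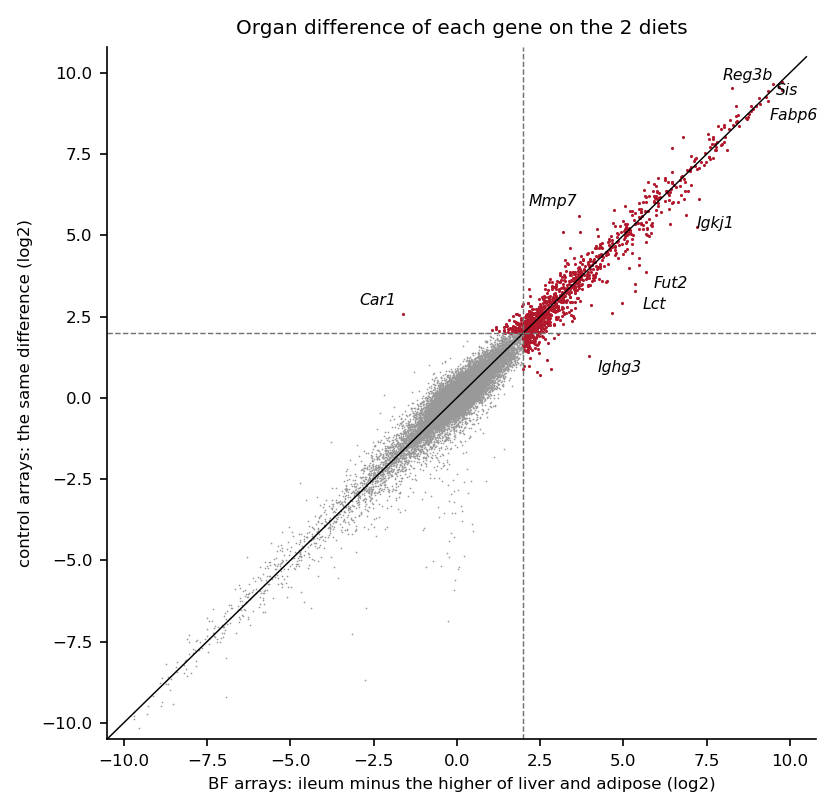
Organ difference of each of 22180 genes (log2) on the BF arrays (x axis) and on the control arrays (y axis), with genes at 2 or more on either diet in red, dashed lines at 2 and the line of equal values. The points lie along that line (r = 0.96), and Car1, at -1.62 on BF and 2.57 on control, lies furthest from it among the red points.

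The organ difference was over 1 apart between diets in 39 of the 1057 genes, larger on BF in 26 and on control in 13. In 10 of the 26 and 1 of the 13 the ileum arrays made the larger part of the gap or as much of it as the other arrays, and in the remaining genes the arrays of the liver or adipose tissue made more of it. Car1, a carbonic anhydrase known from the colon, had 3.46 on the BF array and 7.80 on the control array of the ileum, against 4.46 to 5.23 on the other arrays. Its BF value lay below both other organs and its control value above them. Pcp4 showed the other case, with 7.80 and 7.96 on the BF and control arrays of the ileum but 5.38 (BF) and 7.16 (control) in adipose tissue. Over all genes, the adipose control array lay at least 2 above the adipose BF array in 47 genes and at least 2 below it in 4. At least 2 on one diet but under 1 on the other was found in 6 genes, Car1, Mal, Pcp4, Tmed6, Ms4a4c and D730005E14Rik.

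Within the ileum, the arrays of both diets were normalized together, and each diet is 1 array, so no spread between pools is known and nothing was tested. Above 1.3 fold in BF were 4.27% of all genes and below 0.77 fold 3.88%. Of the 2806 genes higher in the ileum, 135 were above 1.3 fold (4.81%) and 75 below 0.77 fold (2.67%), with a median log2 difference of 0.00. Among genes with an ileum mean of at least 6, those called higher passed in 3.66% (above) and 1.61% (below), and those not called in 2.32% and 0.83%. Of the 945 at 2 or more, 59 were above (6.24%) and 28 below (2.96%). Most epithelial lists had a median within 0.1 of 0: -0.03 for bile acid handling, 0.04 for brush border enzymes, -0.04 for microvillus structure and goblet cells, and -0.08 for epithelial adhesion. Others were larger, at 0.18 for vitamin uptake and M cells, 0.15 for Paneth cells and 0.12 for tuft cells. Of 13 genes of antimicrobial response 4 were above 1.3 fold and 2 below 0.77 fold. Of 27 genes of foreign compounds 6 were above and 4 below. None of the 11 genes of bile acid handling passed either threshold.

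Single genes went further. Ighg3, the constant region of IgG3, had 7.33 on the BF array and 5.03 on the control array of the ileum. Fut2, which adds fucose to the mucosal surface, had 8.92 (BF) and 7.06 (control), a factor of 3.62. Lct had 8.95 (BF) and 7.45 (control), a factor of 2.82. The immunoglobulin segments Igkj1, Ighv1-54 and Igkv1-133 were higher in BF by 1.76, 1.28 and 1.23, while another kappa segment was lower in BF, at 11.81 (BF) and 12.30 (control). Chst4, a sulfotransferase (0.99), Card14 (0.94), Socs3 (0.93) and the sodium-proton exchanger gene Slc9a3 (0.90) followed. On the low side stood the let-7 gene Mirlet7a-1 (-0.70), Sprr1a (-0.68), Mboat1 (-0.66), Xk (-0.57), Zfp764 (-0.54) and Slc25a37 (-0.54). The central 95% of the genes called higher ran from -0.38 to 0.51.

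Markers of other cells were compared between the ileum arrays as well. Over all genes, 4.27% were above 1.3 fold in BF and 3.88% below 0.77 fold. Of 9 MHC class II genes, which present antigen, 2 were above 1.3 fold in BF and none below 0.77 fold (median 0.32), and their summed linear signal was 4950 on the BF array and 3880 on the control array. Of 15 genes of innate lymphoid cells and IL-17 3 were above and none below (median 0.26), with a sum of 1550 (BF) and 1500 (control). Of 20 B and plasma cell genes 7 were above 1.3 fold in BF and none below 0.77 fold (median 0.29), among them Pou2af1 (0.78) and Ms4a1 (0.77), and their signals summed on the linear scale came to 5030 on the BF array and 4200 on the control array. Of 24 T cell genes 8 were above and none below (median 0.24), with a sum of 1440 (BF) and 1150 (control) and with Cd4 at 6.95 (BF) and 6.19 (control). Of 16 genes of the proximal small intestine 5 were above and 1 below (median 0.21), among them Lct, Slc2a2 and Fabp1, which had 7.96 (BF) and 6.78 (control). Smooth muscle genes had a median of -0.14, with none of 19 past a threshold. Of 19 adipocyte markers 9 were below 0.77 fold and 1 above (median -0.33), with a sum of 1740 (BF) and 2250 (control). Adipoq had 4.71 (BF) and 5.76 (control), and Car3 7.57 (BF) and 8.55 (control). Of 23 genes of macrophages and dendritic cells 4 were above and 1 below (median 0.06). Many members of these lists were weak. An ileum mean of at least 6 was reached by 6 of the 24 T cell genes and 8 of the 19 adipocyte markers. It was also reached by 5 of the 15 genes of innate lymphoid cells and IL-17. The part of these cells in the differences of single genes between the ileum arrays was not tested.

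**Figure D5:**
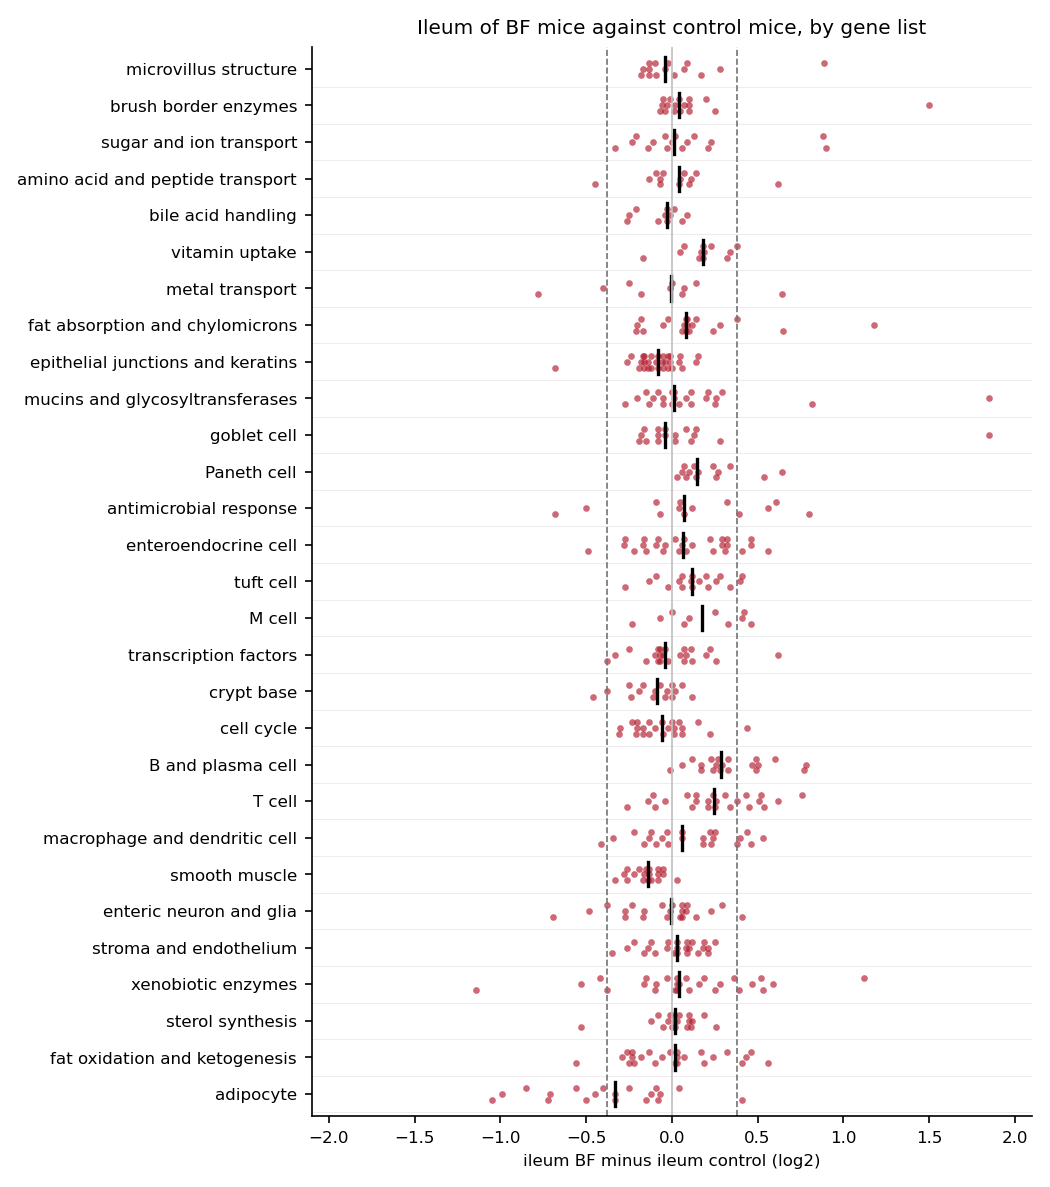
Difference of the ileum BF array from the ileum control array (log2, x axis) for each measured gene (points) by gene list (y axis), with the median as a black bar and dashed lines at 1.3 fold and 0.77 fold. B and plasma cell genes (median 0.29) and T cell genes (0.24) lie to the right of 0, adipocyte markers (-0.33) to the left, and most epithelial lists near 0.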

How the data were processed

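Per the labels and the study's methods, RNA pools were hybridized to GeneChip Mouse Gene 2.0 ST arrays. The authors summarized probes with the robust multi-array average in Affymetrix Expression Console 1.3, and the deposited values are log2 signals, from the evidence of equal values normalized for each organ apart. Array number, not read depth, limits the precision, and each organ and diet had 1 array.

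Of 41345 probe sets, 23521 had 1 gene symbol in the platform table and were kept, and 23328 of these were matched to current names by gene number. For genes with several probe sets, 1082 in all, only the probe set with the largest average signal was taken, which left 22180 genes. An organ term and a diet term were fitted with limma 3.58.1 in R 4.3.3, with 2 residual degrees of freedom and Benjamini-Hochberg adjustment. Because organ and normalization cannot be told apart, and the spread between mice was not measured, its p-values are not given and differences are described by size. The fit was tested on simulated data of 22180 genes for the comparison of the ileum with liver and adipose tissue. The noise was independent and normal, without other organ effects and without separate normalization of the organs. In each run 200 genes with a mean of at least 5 were raised in the ileum, by 1.5, 2 or 3. All were recovered, with 1 unchanged gene called at 1.5, and no smaller change was simulated. The simulation cannot speak to shifts between organs from normalization or to differences near 1. Differences between diets within the ileum carry no test, and 1.3 fold and 0.77 fold served as thresholds after the study's methods.

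The genes, lists and thresholds were chosen with earlier results of these data known. The text names the 4 markers, genes from the 25 protein-coding genes with the largest organ difference, the 10 with the largest difference below, up to 8 members of each list with the largest difference and up to 3 not called, and the 10 genes called higher, with an ileum mean of at least 6, with the largest difference between diets each way. Other genes were named after their values were seen. Alternatives were quantile normalization of the 6 arrays, centring on the median, other thresholds and filters, the mean of probe sets, and leaving out each array.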

Additional observations from a re-analysis of the deposited data

Results flagged for a closer look

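Of 17824 probe sets without exactly 1 gene symbol, which entered no comparison, 347 had the ileum at least 2 above both the liver and adipose tissue on the log2 scale, and the largest organ difference among them was 9.31. They were looked at because the report's genes do not include them, and no gene is named for them here.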

How the results depend on the processing

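The count of genes higher in the ileum, 2806, became 1428 after quantile normalization, 1496 with arrays centred on their median, 945 at a difference of at least 2 and 7268 where only an adjusted p under 0.05 in both contrasts of the limma fit was asked. The count of genes lower in the ileum, 257, became 715, 672, 91 and 646 under the same settings in that order. All these counts also asked for that adjusted p, and by size alone the count of lower genes after quantile normalization was 718. The share of the control set found on BF, 90.9%, became 84% at a difference of at least 1, 93.2% after quantile normalization and 93% with an ileum value of at least 6. Of the genes higher in the ileum, 135 above 1.3 fold in BF became 83 after quantile normalization and 77 with a mean ileum value of at least 6, and 75 below 0.77 fold became 38 and 34. Fewer genes enter these counts under both settings. Leaving out each array in turn gave 2768 to 2906 genes higher and 248 to 269 lower. Diet was a term of the fit, which pairs the organs of a diet, and without it the counts stayed 2806 and 257. No paired analysis of the diets was possible because each had 1 array per organ. With 1 pool of 10 mice per array, differences between diets have no replicate check, and small organ differences cannot be told apart from the separate normalization.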
